A study of Rattus norvegicus with 32 samples.

Results

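Calmodulin is the main calcium sensor of the neuron, and Nrgn, Camk2a, Camk2b, Camk2d, Camk2g, Camk2n1 and Camk4 encode the proteins that hold it, are switched on by it or hold its main kinase in check. The calmodulin genes Calm2 and Calm3 encode the same protein. Neurogranin, the product of Nrgn, binds calmodulin when calcium is low and releases it when calcium rises. Calcium-bound calmodulin then activates CaM kinase II, a holoenzyme of the alpha, beta, delta and gamma subunits encoded by Camk2a, Camk2b, Camk2d and Camk2g, which is concentrated at the synapses of hippocampal pyramidal cells and needed for their long-term potentiation. Camk2n1 encodes an inhibitor protein of CaM kinase II, and Camk4 encodes CaM kinase IV, a mainly nuclear kinase that phosphorylates transcription factors such as CREB. The mRNAs of Camk2a and Nrgn are known from dendrites of the adult forebrain, where they can be translated near synapses.

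These 9 genes were chosen by their symbols, from 17216 gene rows of each count table, and all 9 were present. Counts came from the dendrites and the soma of 16 single hippocampal neurons of wild-type Sprague Dawley rats, labelled pyramidal, giving 16 dendrite libraries and 16 soma libraries. The neurons were taken at embryonic day 18 and kept for 15 days in culture, with no treatment named. Each compartment was aspirated with its own pipette, and its polyadenylated RNA went through 3 rounds of antisense RNA amplification. Collection spanned a number of cultures and days, and no source used here assigns a neuron to its culture or day, so p-values measure the spread between these neurons. A neuron is referred to by the number that its dendrite and soma samples share.

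Dendrite libraries held between 229149 and 24439768 gene counts, with a median of 8842539, and soma libraries between 878125 and 24721811, with a median of 15629500. The dendrites were the shallower library in 14 of 16 neurons. Levels are given in counts per 1000000 gene counts (CPM), so they are relative to the rest of the RNA in that library and not corrected for gene length. The label of the cells was checked against markers: Neurod6, a transcription factor gene of pyramidal cells, had 10 or more counts in all 32 libraries, while Slc17a7, the vesicular glutamate transporter gene of mature pyramidal cells, had them in 2 dendrite and 5 soma libraries. Gad1, an enzyme gene of inhibitory neurons, had them in 11 dendrite and 7 soma libraries. Other inhibitory markers were found less widely: Slc32a1 and Sst each had them in 6 dendrite and 6 soma libraries, and Dlx1 in 3 and 3. Gad2, Dlx5 and Lhx6 each had them in 2 and 2, and Dlx2 in 0 of either. Few libraries were closest to the other compartment of their own neuron. In profiles centred within compartments, 5 of 16 dendrite libraries were most like their own soma and 7 of 16 soma libraries most like their own dendrites. The dendrites of neuron 9 were most like the soma of neuron 7 (Spearman correlation 0.259 over 4916 genes, against 0.070 with their own soma), the dendrites of neuron 7 were most like the soma of neuron 9 (0.165, against 0.091), and the soma of neuron 8 was most like the dendrites of neuron 9 (0.231, against 0.193). The dendrites of neurons 20 and 13 were the most alike of 120 dendrite pairs, with 0.784 against 0.560 for the next pair and a median of 0.440. Normalization by TMM also sets the dendrites of neuron 20 apart: relative to library totals it raised their log2 values by 2.54, against shifts between -0.81 and 0.58 in the other 31 libraries. Levels in CPM are on library totals, and log2 CPM is called normalized where TMM was applied. Values without neurons 7, 8 and 9, or without neuron 20, stand beside several of the results that they moved.

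Calm2, Calm3 and Camk2b were present everywhere, while the other 6 genes were found in some neurons and not in others. At a minimum of 10 counts, these 3 genes were present in all 16 dendrite and all 16 soma libraries, as were 3.19% of all gene rows. Camk2n1 reached that minimum in 12 dendrite and 12 soma libraries, Nrgn in 10 and 8, and Camk4 in 8 dendrite and 6 soma libraries. Camk2a, the subunit gene most often used as a dendritic mRNA, reached it in 4 dendrite and 5 soma libraries. Camk2g reached it in 2 dendrite and 3 soma libraries, and Camk2d in 0 of either. Of all gene rows, 36.8% reached it in no library. A library held between 3 and 7 of the 9 genes in dendrites, with a median of 5.5, and between 3 and 8 in soma, with a median of 5.

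**Figure D1:**
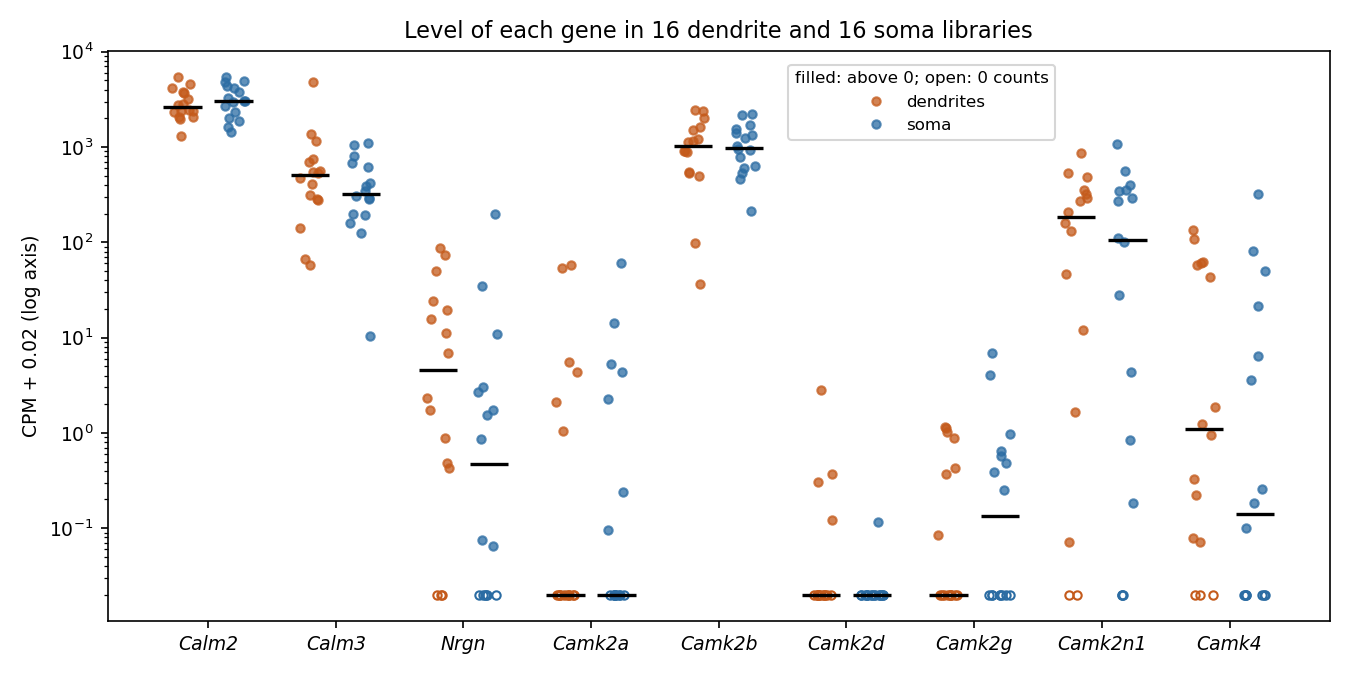
Level of the 9 genes in CPM, with 0.02 added for a log axis, in each of 16 dendrite libraries (orange) and 16 soma libraries (blue); filled points are above 0, open points have 0 counts and black bars are medians. Calm2, Calm3 and Camk2b lie above 0 in every library, while Nrgn, Camk2n1 and Camk4 run from 0 to above 80 CPM in both compartments.

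The first question was whether any of these mRNAs was relatively more abundant in the dendrites of a neuron than in its own soma. The 6 genes with enough counts to be tested were Calm2, Calm3, Nrgn, Camk2b, Camk2n1 and Camk4, and 0 of them passed an adjusted p of 0.05 in edgeR's quasi-likelihood test with the neuron as a block. The same test called 0 of 4916 genes, or 0%, and 129 genes, or 2.62%, had an unadjusted p under 0.05, among them 1 of the 6 (Nrgn). Limma-voom also called 0 genes. So did the exact sign-flip test per gene, but its smallest p, 3.05e-05, is too large for a single gene to pass over 4916 genes. DESeq2's Wald test called 405, or 8.24%, among them Nrgn. Fold changes were positive, meaning higher in dendrites, for 4 of the 6 and negative for 2, with a median of 0.73 in log2 against 0.127 over all tested genes. That median was 0.155 without neurons 7, 8 and 9, 0.229 without neuron 9 alone and 0.118 with no replicate block. Camk2a, Camk2d and Camk2g did not pass the filter on low counts and are given as levels only.

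Calm2 varied least between neurons of the 6 tested genes. It had between 1292 and 5435 CPM in dendrites, with a median of 2629, and between 1439 and 5474 CPM in soma, with a median of 3052. The ranges of the compartments overlapped almost entirely. The highest library among dendrites was that of neuron 27 and the highest among somata that of neuron 25. The mean was 2963 ± 1101 CPM in dendrites and 3240 ± 1246 CPM in soma (SD, n = 16 each), and 9 of 16 neurons were higher in dendrites. The log2 fold change was -0.08 ± 0.29 (SE, edgeR adjusted p = 0.999), a value whose sign turned with no replicate block (0.32), with limma-voom (0.18), without neuron 25 (0.098) and without neuron 28 (0.024).

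Calm3 varied more. In dendrites it ran between 57.1 and 4772 CPM, with a median of 506, and in soma between 10.5 and 1107 CPM, with a median of 324. The dendrites of neuron 20 stood far above the other 31 libraries and held 38.5% of the summed CPM of all dendrites. The mean in dendrites was 774 ± 1124 CPM with that library (SD, n = 16) and 507 ± 369 CPM without it (n = 15), against 436 ± 326 CPM in soma (n = 16). Calm3 was higher in dendrites in 8 of 16 neurons, or in 5 of 13 without neurons 7, 8 and 9, and the log2 fold change was 0.34 ± 0.54 (SE, edgeR adjusted p = 0.999). With no replicate block the log2 fold change was 2.46 (edgeR adjusted p = 0.233), without neurons 7, 8 and 9 it was 0.16, and over the fits that each left out 1 neuron it ran between 0.12, without neuron 21, and 0.52, without neuron 13.

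Since both genes make the same protein, the share of Calm3 in the counts of Calm2 and Calm3 was followed within each neuron, where gene length cancels out of the comparison between compartments. The share of Calm3 was 18.1 ± 16.0% in dendrites and 13.6 ± 11.8% in soma (n = 16, SD). It ran between 2.26%, in the dendrites of neuron 26, and 56.6%, in those of neuron 20, and in soma between 0.279%, in neuron 21, and 40.8%, in neuron 11. The dendrites of neuron 14 also had more than their soma, with 51.2% against 23.6%, whereas the dendrites of neuron 13 had 4.81% and their soma 35.6%. The difference, dendrites minus soma, averaged 4.42 ± 18.8 percentage points (SD) and was above 0 in 9 of 16 (p = 0.370 in a two-sided exact sign-flip permutation test). It was 1.51 points without neuron 20 and 6.76 without neuron 13. Calm2 and Calm3 have near-identical coding sequences and processed copies elsewhere in the genome, and no source used here says how reads matching several places were counted, so the split between them is uncertain.

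**Figure D2:**
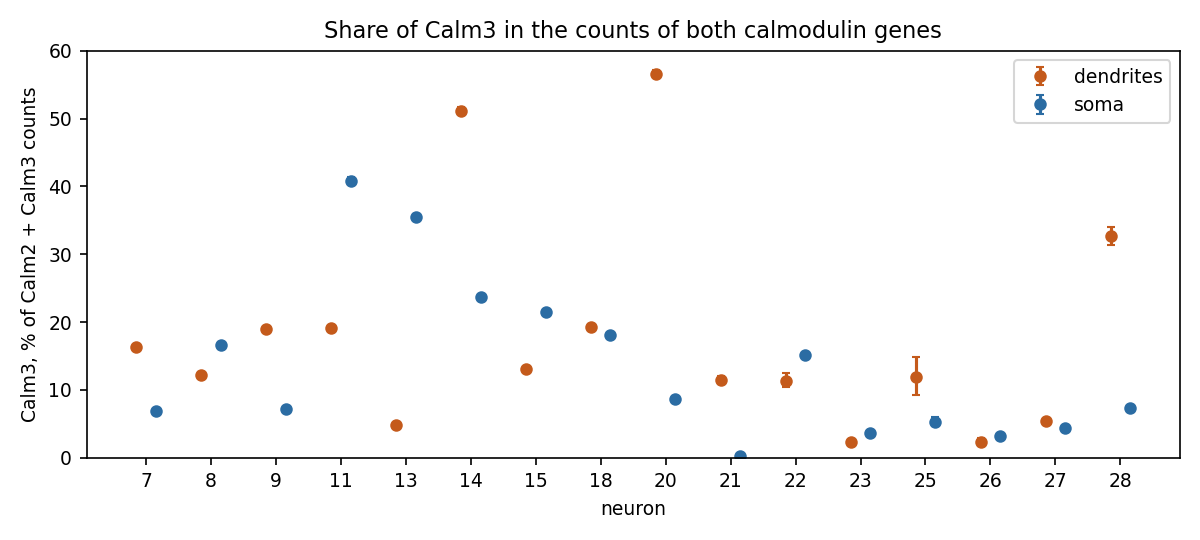
Calm3 counts as a percentage of Calm2 and Calm3 counts for each of the 16 neurons, in dendrites (orange) and soma (blue); bars are 95% exact binomial intervals, which cover counting error only and are mostly smaller than the points. The share spans 2.26% to 56.6% in dendrites and 0.279% to 40.8% in soma. Neurons 13, 14 and 20 show a wide distance between the dendrite and soma libraries of the same number, in either direction. The dendrites of neurons 20 and 13 were the most alike of all dendrite pairs, so their pairing with a soma rests on the labels alone.

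The levels of Calm2 and Calm3 did not follow each other from library to library. Their normalized log2 CPM had a Spearman correlation of 0.10 over the 16 dendrite libraries, -0.54 over the 16 soma libraries and -0.19 over all 32. These values share library depth and the common total that CPM imposes, and are given as a description.

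Nrgn had the largest fold change of the 6 tested genes. It had 13 dendrite libraries and 10 soma libraries above 0, with levels of 0 to 87.7 CPM in dendrites, median 4.60, and 0 to 199 CPM in soma, median 0.453. The highest dendrite libraries were those of neurons 22, 13 and 21, with 87.7, 74.2 and 50.5 CPM. In soma, neuron 9 alone had 199 CPM, followed by neuron 11 with 34.6 and neuron 13 with 10.9 CPM. The medians thus differ in the direction of dendrites while the ranges overlap, and the highest single library is a soma.

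The mean of Nrgn was 18.5 ± 27.9 CPM in dendrites and 15.9 ± 49.6 CPM in soma (SD, n = 16 each). The soma of neuron 9 held 78.2% of the summed soma CPM, and without it the soma mean was 3.69 ± 8.99 CPM (n = 15). Without neurons 7, 8 and 9 the median was 1.71 CPM in dendrites and 0.046 CPM in soma (n = 13 each). Nrgn was higher in dendrites in 12 of 16 neurons, lower in 3 (9, 11 and 18) and at 0 in both libraries of neuron 25, or higher in 10 of 13 without neurons 7, 8 and 9. Some of these directions rest on few counts. Dendrites against soma, neuron 20 had 2 against 0, neuron 14 had 5 against 0 and neuron 26 had 8 against 11 in its deeper soma. Among the neurons lower in dendrites, neuron 18 had 0 against 17. In the dendrites of neurons 11, 18 and 25, a count of 0 allows up to 0.141, 0.177 and 13.1 CPM (3 counts of the total, counting error only), so the dendrites of neuron 25 were too shallow for a level such as the median to be seen.

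The log2 fold change of Nrgn was 3.62 ± 1.71 (SE, n = 16 neurons), and edgeR's test gave it p = 0.0443 unadjusted and p = 0.999 adjusted over all tested genes. The mean difference of log2 CPM within neurons, after normalization and with a prior count of 2, was 1.96 ± 3.99 (SD, n = 16, exact sign-flip permutation p = 0.0699, two-sided, adjusted p = 0.865, in a test where 5.37% of all tested genes had an unadjusted p under 0.05). That of counts over spike-in counts was 2.43 ± 4.97 (adjusted p = 1.00 in the same exact test). DESeq2's Wald test called Nrgn, with a log2 fold change of 3.96 ± 1.10 (SE) and an adjusted p of 0.00794, and Nrgn was 1 of the 6 called there, by a test that called 8.24% of all tested genes. Without neurons 7, 8 and 9 the edgeR fold change was 4.53 (adjusted p = 0.999), with no replicate block 0.48 (adjusted p = 0.999) and with limma-voom 2.13 (adjusted p = 0.986).

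Markers of other cell types were set beside Nrgn. The summed level of 8 astrocyte markers ran between 0 and 1259 CPM in dendrites, with a median of 111, and between 0 and 373 CPM in soma, with a median of 14.3, with dendrites above soma in 12 of 16 neurons. Both Nrgn and the astrocyte sum were higher in dendrites in 11 neurons, and Nrgn was higher where dendrites were the shallower library in 11. Nrgn and the astrocyte sum were each higher in 12 of 16 neurons and dendrites shallower in 14. These totals alone give much of either overlap. Of those 8 markers, 1 was tested, the lipid carrier gene Apoe, with a log2 fold change of 4.16 ± 1.55 (SE, edgeR adjusted p = 0.999). Gad1 had 10 or more counts in 13 of the 18 libraries with Nrgn at that level and in 5 of the other 14, and Neurod6 had them in all of both kinds. Of 6 microglia genes, Aif1, Cx3cr1, C1qa and C1qb were at 0 in every library. Csf1r and Ptprc were at 0 in every soma library and above it in the dendrites of 3 neurons each. Ptprc reached 10 counts in 2 dendrite libraries, with at most 8.37 CPM. The part of astrocyte RNA, inhibitory cells and depth in the difference of Nrgn was not tested.

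**Figure D3:**
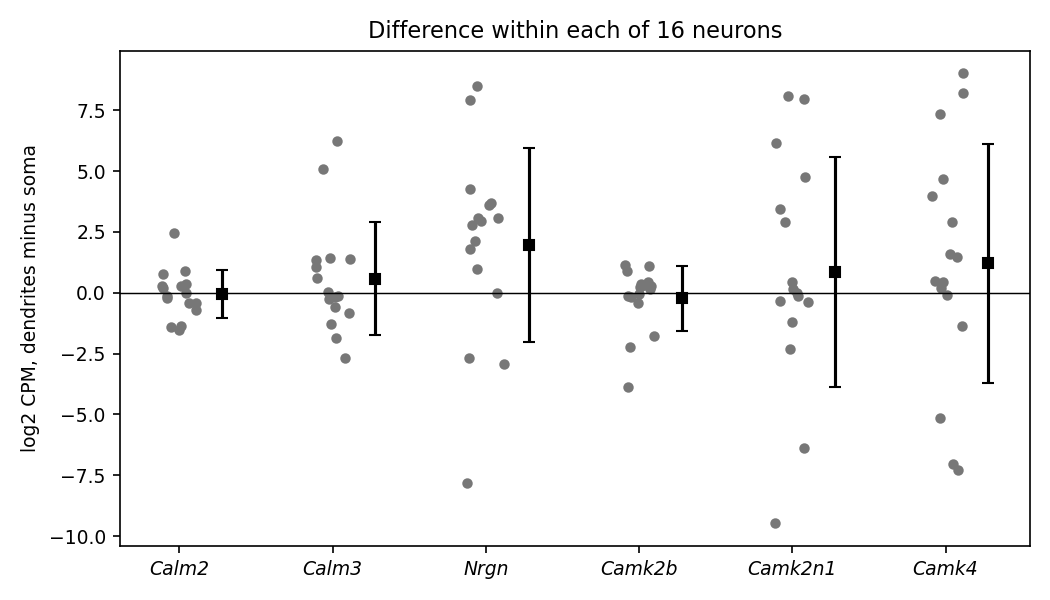
Difference of log2 CPM (normalized, prior count 2), dendrites minus soma, within each of 16 neurons for the 6 tested genes; grey points are neurons and black squares with bars are mean ± SD. The means of Calm2 and Camk2b are -0.06 and -0.23, with single neurons between -1.54 and 2.46 and between -3.87 and 1.16. The 2.46 is neuron 20, where TMM raised log2 values by 2.54 in dendrites and 0.44 in soma. In CPM its Calm2 was 3653 in dendrites and 3051 in soma. Its Camk2b stands at -0.05 here, with 98.0 CPM in dendrites and 466 CPM in soma. Nrgn, Camk2n1 and Camk4 spread over more than 15 log2 units from the lowest neuron to the highest.

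Camk2b was the CaM kinase II subunit gene found in every library. It had between 36.1 and 2465 CPM in dendrites, with a median of 1022, and between 211 and 2209 CPM in soma, with a median of 982. The lowest dendrites were those of neurons 15 and 20, with 36.1 and 98.0 CPM, whose somata had 633 and 466 CPM. Elsewhere the compartments overlapped, with means of 1123 ± 737 CPM in dendrites and 1107 ± 588 CPM in soma (SD, n = 16 each). Camk2b was higher in dendrites in 8 of 16 neurons, or 6 of 13 without neurons 7, 8 and 9. The log2 fold change was -0.14 ± 0.40 (SE, edgeR adjusted p = 0.999), or 0.046 without neuron 15 and -0.36 without neurons 7, 8 and 9. The soma of neuron 8, which had the highest level of Gad1 with 11161 CPM, had the lowest soma levels of Camk2b and Calm2. This is a single library, and its Calm3 (286 CPM), Camk2n1 (101 CPM) and Nrgn (3.03 CPM) were not the lowest among somata. A link with Gad1 was not tested.

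Camk2a was listed at 0 in 10 of 16 dendrite libraries and 9 of 16 soma libraries. It was high in single compartments: the dendrites of neurons 11 and 21 had 57.6 and 54.1 CPM, while their somata had 0.0748 and 0 CPM. In neuron 9 the dendrites had 1.03 CPM and the soma 60.4 CPM. The median was 0 in both compartments, and the mean 7.79 ± 18.8 CPM in dendrites and 5.40 ± 15.1 CPM in soma (SD, n = 16 each), with 69.8% of the summed soma CPM in neuron 9. Without neurons 7, 8 and 9 the mean was 9.09 CPM in dendrites and 1.59 CPM in soma (n = 13 each). Camk2a was higher in dendrites in 5 neurons, lower in 5 and tied in 6. A count of 0 allowed between 0.123 and 2.80 CPM in the dendrite libraries concerned and between 0.121 and 3.42 CPM in the soma libraries.

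Camk2d and Camk2g were near the limit of counting. Camk2d had 0 counts in 12 dendrite and 15 soma libraries and at most 4 counts, in the dendrites of neuron 28. Camk2g ran up to 21 counts in dendrites (neurons 11 and 13) and 65 counts in soma (neuron 9), with means of 0.307 ± 0.446 CPM in dendrites and 0.877 ± 1.87 CPM in soma (SD, n = 16 each). No direction is read from these levels.

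Of the counts of Camk2a, Camk2b, Camk2d and Camk2g together, Camk2b took 99.6 ± 0.774% in dendrites and 99.3 ± 1.86% in soma (SD, n = 16). The lowest shares were 97.7% among dendrites and 92.5% among somata, in neuron 9. The difference, dendrites minus soma, was 0.29 ± 2.11 percentage points and above 0 in 8 of 16 (p = 0.748 in a two-sided exact sign-flip permutation test). It turned to -0.18 points without neuron 9 and -0.21 without neurons 7, 8 and 9. These shares are of counts, and the subunit mRNAs differ in length.

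**Figure D4:**
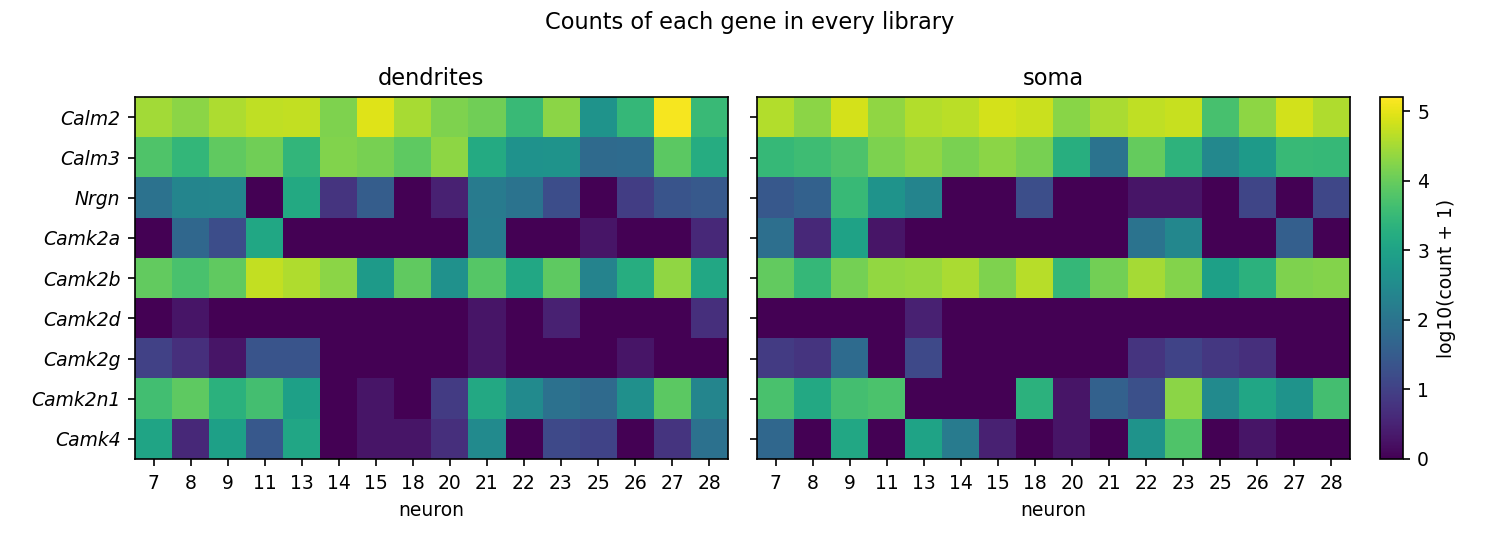
Counts of the 9 genes, as log10 of the count plus 1, in the dendrites (left) and soma (right) of each of the 16 neurons. The rows of Calm2, Calm3 and Camk2b are filled throughout, the rows of Camk2d and Camk2g hold at most 4 and 65 counts, and Camk2a, Camk2n1, Nrgn and Camk4 fill in some libraries and stand at 0 in others.

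Camk2n1 was the most widely found of the patchy genes, and its extremes lay in different cells for each compartment. It ran between 0 and 858 CPM in dendrites, with a median of 185, and between 0 and 1073 CPM in soma, with a median of 106. The dendrites of neuron 8 were highest among dendrites and the soma of neuron 23 highest among somata. In neuron 18 the gene had 0 counts in dendrites and 2197 in soma, while in neuron 13 it had 886 counts in dendrites and 0 in soma. The means were 230 ± 244 CPM in dendrites and 221 ± 291 CPM in soma (SD, n = 16 each), and dendrites were higher in 9 neurons and lower in 6. Without neurons 7, 8 and 9 the median was 160 CPM in dendrites and 27.97 CPM in soma (n = 13 each). The log2 fold change was 1.13 ± 1.37 (SE, edgeR adjusted p = 0.999), and -0.08 with no replicate block.

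Camk4 ran between 0 and 134 CPM in dendrites, with a median of 1.08, and between 0 and 323 CPM in soma, with a median of 0.122. Neuron 23 had 13 counts in dendrites and 5844 in soma, its soma held 66.5% of the summed soma CPM, and without that library the soma mean was 10.9 ± 23.6 CPM (SD, n = 15). The means of all neurons were 29.4 ± 43.8 CPM in dendrites and 30.4 ± 81.3 CPM in soma (SD, n = 16 each), and dendrites were higher in 10 of 16 neurons. The log2 fold change was 2.55 ± 1.84 (SE, edgeR adjusted p = 0.999) and had the opposite direction to the difference of the means. DESeq2's test gave it 3.12 ± 1.13 (adjusted p = 0.0618), limma-voom 1.42 (adjusted p = 0.986), and the edgeR fit with no replicate block -0.29 (adjusted p = 0.999).

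The second question was whether any of the patchy genes was detected in more dendrites than somata. Nrgn reached 10 counts in the dendrites alone in 5 neurons and in the soma alone in 3 (exact McNemar p = 0.727, two-sided, adjusted p = 1.00). Camk4 did so in the dendrites alone in 4 neurons and in the soma alone in 2 (exact p = 0.688), Camk2a in 3 and 4 (exact p = 1.00), Camk2g in 1 and 2 and Camk2n1 in 1 and 1. Over all genes 0 of 10256, or 0%, passed an adjusted p of 0.05, and 73, or 0.712%, had an unadjusted p under 0.05, none of them among these 9. The smallest p of this test with 16 neurons, 3.05e-05, is too large for a single gene to pass over 10256 genes. Camk2g and Camk2n1 differed between compartments in so few neurons that no split could have given a p under 0.05. With each library thinned at random to 1071293 counts, which left out neuron 25, Nrgn reached 10 counts in 7 of 15 dendrites and 3 of 15 somata (exact McNemar p = 0.219, adjusted p = 1.00), Camk2n1 in 11 and 9, Camk4 in 5 and 4, and Camk2a in 2 and 2.

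Some neurons held much of an mRNA in one compartment and next to none in the other. Counting neurons with at least 100 counts in one library and 3 or fewer in the other, Nrgn had 1 neuron with the mRNA in dendrites and 1 with it in soma, Camk2n1 also 1 and 1, Camk2a 2 and 1, and Camk4 1 and 2. Calm2, Calm3 and Camk2b had 0 such neurons. Camk2d and Camk2g, with at most 4 and 65 counts in a library, could not reach 100 counts and so could have none. A tested gene had a median of 2 such neurons (quartiles 1 and 4), and 19.9% of tested genes had 0. The 9 libraries with 10 or more counts of Camk2a all reached that minimum for Camk2n1, as did 24 of all 32 libraries. For Camk4, 7 of the 9 reached it, against 14 of all 32. Nrgn and Camk2n1 were present together in 16 libraries, 88.9% of the 18 with Nrgn and 66.7% of the 24 with Camk2n1. These overlaps were not tested, and none was computed for other pairs of genes, so they are a description only.

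The third question, close to the series title with its mention of drift between cell compartments, was whether a gene varied more between neurons in dendrites than in soma. The SD of normalized log2 CPM over 16 neurons was 1.04 in dendrites and 0.645 in soma for Calm2, 2.07 and 1.53 for Calm3, and 1.35 and 0.910 for Camk2b. It was 3.04 in dendrites and 3.12 in soma for Nrgn, 4.26 and 4.80 for Camk2n1, and 3.74 and 3.80 for Camk4, against medians over all tested genes of 3.22 in dendrites and 3.46 in soma. None of the 6 passed an exact swap permutation test of the ratio of variances (adjusted p between 0.980 and 0.997), nor did any of 4916 genes, or 0%, while 6.53% had an unadjusted p under 0.05. A p of this test cannot fall below 3.05e-05, which is too large for a single gene to pass over 4916 genes. The log2 ratio of variances, dendrites over soma, depended on the scaling for the calmodulin genes. On normalized values that of Calm2 was 1.38, and 0.13 without neuron 20, whose dendrites had the TMM shift of 2.54. On library totals, chosen after seeing the data, it was -0.31, with SDs of 0.530 in dendrites and 0.589 in soma. That of Calm3 was 0.87 on normalized values, -0.48 without neuron 20 and -0.01 on library totals, where its SDs were 1.59 in dendrites and 1.59 in soma. That of Camk2b was 1.15 on normalized values and 1.74 on library totals, with SDs of 1.64 in dendrites and 0.896 in soma there, and -0.65 on normalized values without neuron 15. On library totals the 6 genes had adjusted p between 0.981 and 0.999 in the same exact permutation test.

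Levels were also set side by side within neurons. The Spearman correlation of normalized log2 CPM over 16 neurons was 0.41 for Calm3, 0.38 for Camk2b, 0.32 for Nrgn and for Camk2n1, 0.19 for Calm2 and 0.01 for Camk4, against a median of 0.08 over all tested genes (quartiles -0.11 and 0.26). Same-numbered libraries share the cell and may share the culture and the day of collection. These values are a description over 16 points.

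Genes whose levels followed those of the 4 widely found genes most closely over all 32 libraries were listed by Spearman correlation of normalized log2 CPM. For Calm2 the closest was the cytoplasmic actin gene Actg1, with 0.71. For Calm3 they were Atp5g1 and Atp5g2, which encode the c subunit of mitochondrial ATP synthase, with 0.66 and 0.63. For Camk2b they were the thioredoxin gene Txn1, with 0.60, and Higd2a, a gene of mitochondrial respiratory chain assembly, with 0.56. For Camk2n1 they were Rprml, with 0.71, and Ssbp3, which encodes a single-stranded DNA-binding protein, with 0.64. The best such value of a tested gene had a median of 0.67 (quartiles 0.64 and 0.71), and the best values of Calm2 and Calm3 lay between those quartiles, while that of Camk2b lay below the lower one. On library totals the same pairs had 0.66 for Calm2 with Actg1, 0.69 for Calm3 with Atp5g1 and 0.69 for Camk2b with Txn1. No quartiles were computed on library totals, so the place of Camk2b among tested genes is known for normalized values only.

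The wider pathway was described through lists of calmodulin-dependent and calmodulin-binding proteins (41 genes) and of synaptic partners and substrates of CaM kinase II (18 genes). Of the first list, 27 genes were tested and 0 passed an adjusted p of 0.05 in either direction, with 15 positive and 12 negative fold changes and a median log2 fold change of 0.20. Of the second, 10 were tested and 0 passed in either direction, with 7 positive, 3 negative and a median of 0.68. The median over all tested genes was 0.127. In both lists 0 genes had an unadjusted p under 0.05, against 2.62% of all tested genes.

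Among the calmodulin-binding proteins, Gap43, which encodes a growth cone protein that binds calmodulin as neurogranin does, had 6210 ± 3061 CPM in dendrites and 7543 ± 3579 CPM in soma (SD, n = 16 each) and a log2 fold change of -0.18 ± 0.28 (SE). The calcineurin genes, which encode the calmodulin-dependent phosphatase, had fold changes of both signs: the catalytic subunit gene Ppp3ca was at -0.72 ± 0.61, with 1181 ± 1059 CPM in dendrites and 1622 ± 1315 CPM in soma, and the regulatory subunit gene Ppp3r1 at 0.20 ± 0.45. Ppp3ca was higher in dendrites in 5 of 16 neurons and Ppp3r1 in 10. Sptan1, a spectrin gene of the membrane skeleton, stood at 0.35 ± 0.47, and Marcks, which encodes an actin-binding substrate of protein kinase C that calmodulin displaces from the membrane, at -0.29 ± 0.51. The transcription activator gene Camta1 was at 0.47 ± 0.57 and the kinase-like gene Camkv at 0.39 ± 0.63 (edgeR adjusted p = 0.999 for each of these 7).

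Among partners and substrates of CaM kinase II, Dlg4, which encodes the scaffold PSD-95, had 688 ± 826 CPM in dendrites and 291 ± 255 CPM in soma (SD, n = 16 each), was higher in dendrites in 11 of 16 neurons and had a log2 fold change of 0.93 ± 0.58 (SE). Mapt, which encodes the microtubule protein tau, was at 0.40 ± 0.27, and Map2, the dendritic microtubule protein gene, at 1.45 ± 1.62. Shank3, whose protein links the scaffolds of excitatory synapses, was at 1.68 ± 1.52, with dendrites above soma in 10 of 16 neurons. The NMDA receptor gene Grin1, whose protein forms part of the receptor to which CaM kinase II docks, was at -0.68 ± 1.26, with dendrites above soma in 5. The vesicle protein gene Syn1 was at -0.21 ± 0.51, the actin crosslinker gene Actn4 at 0.43 ± 0.95 and the membrane fusion gene Stx1a at 1.24 ± 1.28 (edgeR adjusted p = 0.999 for each of these 8).

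**Figure D5:**
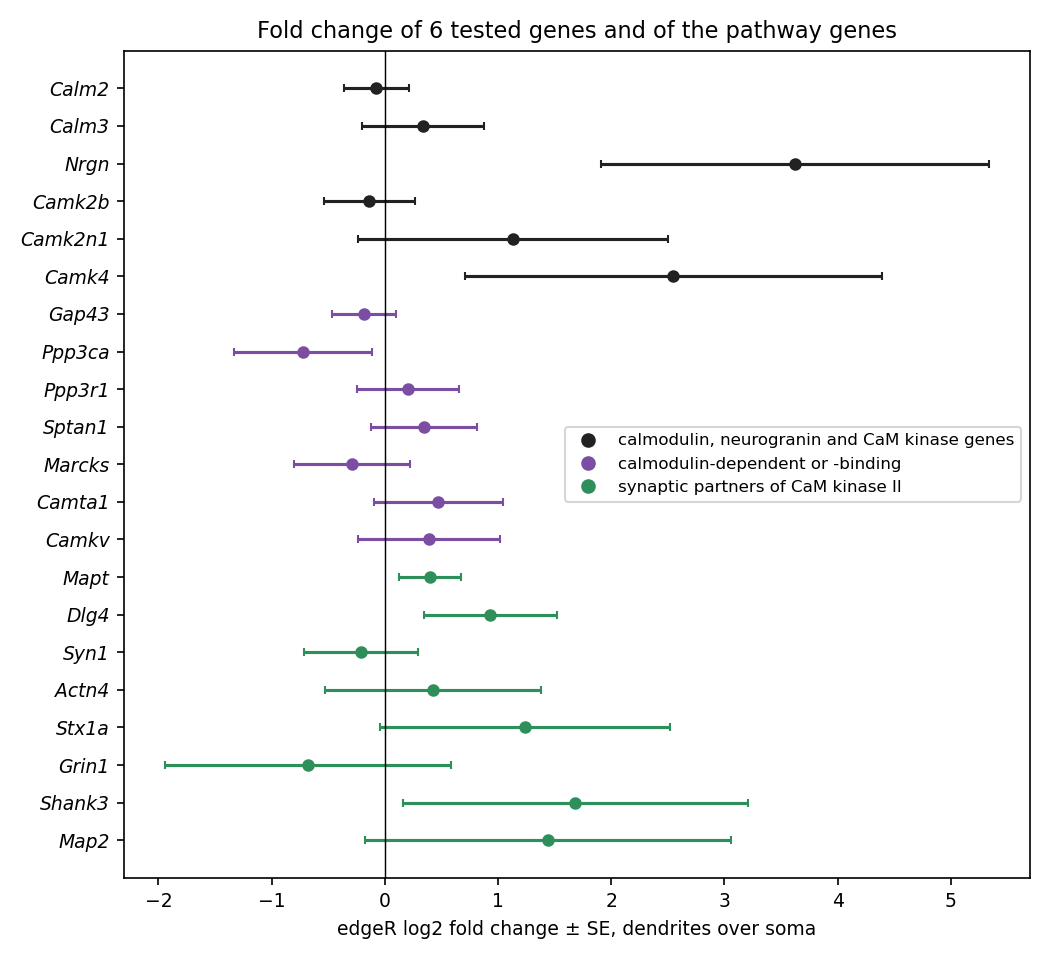
Log2 fold change, dendrites over soma, with its SE from edgeR's quasi-likelihood fit over 16 neurons, for the 6 tested genes (black), 7 calmodulin-dependent or calmodulin-binding genes (purple) and 8 synaptic partners or substrates of CaM kinase II (green). Widely found genes such as Calm2, Gap43 and Mapt have SE values between 0.27 and 0.29, and the patchy genes Nrgn, Camk4 and Map2 have SE values of 1.71, 1.84 and 1.62.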

How the data were processed

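The authors deposited whole-number counts per gene, 1 table per library, with 92 rows of ERCC spike-in transcripts, synthetic RNAs of known amount, which were left out of totals and tests. The submitters' processing notes name build rn6. Aligner, annotation, strand setting and the counting of multiply matching reads are not given in the sources used here. The amplified reads carry no stated molecular identifiers. Series text states that samples with the same number are from the same cell, and the neuron was blocked. As a check, the Spearman correlation of centred profiles averaged 0.0678 over same-numbered pairs and -0.000544 over other pairs, and 4 of 16 exceeded 0.1. In R 4.3.3, genes passing filterByExpr by compartment (minimum count 10) were tested with edgeR 4.0.16 (TMM, robust glmQLFit, glmQLFTest, Benjamini-Hochberg, adjusted p under 0.05). Each SE came from dividing the absolute fold change by the root of F. Alternatives were DESeq2 1.42.0 (Wald, same block), limma-voom 3.58.1, other scalings and filters, and fits with neurons left out. Detection used exact McNemar tests and shares exact sign-flip tests, whose smallest p is 3.05e-05. Tests were checked on simulated data with planted changes. For the paired tests those changes and their spread were not taken from these data, so the check does not show how large a change could be found here. The genes and lists were chosen with earlier results of these data known. Named pathway genes were up to 8 per list with 10 or more counts in the most libraries. Like genes were the best 2 for each gene found in at least 24 libraries. Some genes that these rules select are not reported here.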

Additional observations from a re-analysis of the deposited data

How the results depend on the processing

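The number of genes called was 0 in edgeR's test, 1 without a filter on low counts and 405 with DESeq2 (273 higher and 132 lower in dendrites), where 1 of the 6 tested genes, Nrgn, was called. With no replicate block 0 genes were called, and the log2 fold change was 0.316 for Calm2, -0.0806 for Camk2n1 and -0.29 for Camk4, all opposite in sign to the fit with the block, and 2.46 for Calm3 and 0.476 for Nrgn. The median over the tested genes of the group was 0.118 there. Calm2 also turned to 0.18 with limma-voom and 0.0983 without neurons under 1000000 gene counts, that is neuron 25. The difference in the share of Camk2b was -0.207 percentage points without neurons 7, 8 and 9. The log2 ratio of variances of Nrgn was 0.531 without them. On library totals in place of TMM, log2 ratios of variances turned to -0.309 for Calm2, -0.00796 for Calm3, 0.00833 for Nrgn and 0.0188 for Camk4, and without neuron 20 as well they were -0.365, -0.598, 0.0144 and 0.0338. These variance settings were chosen after seeing the data. The cause of the other turns was not tested.

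Leaving out each neuron in turn moved the log2 fold change of Calm2 between -0.178 and 0.0983 and of Camk2b between -0.308 and 0.0458. The share difference of Camk2b moved between -0.179 and 0.464 points. Log2 ratios of variances moved between -0.336 and 0.517 for Nrgn, -0.225 and 0.515 for Camk4, -0.648 and 1.69 for Camk2b and -0.482 and 2.37 for Calm3. The median of the group moved between 0.229, without neuron 9, and 0.958, and was 0.155 without neurons 7, 8 and 9. Calls in the group stayed at 0 in all of these fits. Camk4 was left out by the filter in 4 of 16 of them and without neurons 7, 8 and 9, and the stricter filter (10 counts in 28 of 32 libraries) kept Calm2, Calm3 and Camk2b, with a median of -0.0761. In the shallowest dendrite library a count of 0 allows up to 13.1 CPM.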
